A study of Rattus norvegicus with 24 samples.

Results

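The genes described here were the 3 Gadd45 genes (Gadd45a, Gadd45b and Gadd45g), Cdkn1a, which encodes the cell-cycle inhibitor p21, and the p53 targets Mdm2 and Ccng1. They were 6 of the 13458 gene symbols measured, and each was found in a single row of the expression table. On build rn7, as the table gives it, they lie at chr4:96154789-96157092 (Gadd45a), chr7:8778004-8780034 (Gadd45b), chr17:13376842-13378588 (Gadd45g), chr20:7149286-7159728 (Cdkn1a), chr7:53290666-53314916 (Mdm2) and chr10:25176231-25182605 (Ccng1). The members were chosen by name, and partly because Gadd45a was among the genes with the largest rises in silenced muscle. The Gadd45a values in the comparisons of silenced, recovered and control limbs were therefore what chose the members, and they are given as a description with no test. The samples were the tibialis anterior muscles of 12 aged male Fischer 344 rats (23 ± 1 months), with both hind limbs of every rat sequenced. In 9 rats the left common peroneal nerve was blocked with tetrodotoxin (TTX), a sodium channel blocker that stops nerve impulses, so that the muscle was not activated while the rest of the hind limb could still move. Muscles were taken after 6 to 7 days of TTX (atrophy, n = 3), after a further 9 days without TTX (recovery, n = 3), or after a second TTX period of 5 to 6 days that followed the recovery period (repeated atrophy, n = 3). The 9 untreated right limbs of these rats were the control group. The other 3 rats had sham surgery and gave 3 left (sham) and 3 right limbs, with 1 sham rat at each of the 3 collection times. All 24 limbs therefore came from aged males, and the control limbs came from rats that carried a silenced or previously silenced muscle on the other side.

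Gadd45 proteins are small acidic proteins without enzyme activity that are induced by stress and bind partners such as PCNA, CDK1 and the kinase MAP3K4, which feeds the p38 and JNK pathways. Gadd45a is known as a gene that rises when a muscle is denervated, immobilised or starved, and p21 is known to be induced with it and to stop the cell cycle when differentiation begins. The transcription factor p53 binds DNA after DNA damage and other stress and activates Cdkn1a, Mdm2, Ccng1 and Gadd45a, while MDM2, the ubiquitin ligase that targets p53 for degradation, closes a negative feedback loop. In myoblasts and muscle fibres Gadd45a and Cdkn1a also respond to other transcription factors, among them ATF4 and myogenin, so a rise of these genes does not by itself report p53 activity.

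The 250 bases upstream of the transcription start are shown for the 3 members in which the p53 half-site (the decamer consensus, with no mismatch allowed) was found and for Gadd45g, the member that was a DEG in the downward direction in repeated atrophy. All 6 members were matched by symbol, and the sequences are from RefSeq, build GRCr8, read 5′ to 3′ on the strand of the gene, with motif matches in capitals. The windows are chr4:97486800-97487049 (minus strand) for Gadd45a, chr20:7150682-7150931 (plus strand) for Cdkn1a, chr10:25684877-25685126 (minus strand) for Ccng1 and chr17:13530352-13530601 (minus strand) for Gadd45g.
Gadd45a: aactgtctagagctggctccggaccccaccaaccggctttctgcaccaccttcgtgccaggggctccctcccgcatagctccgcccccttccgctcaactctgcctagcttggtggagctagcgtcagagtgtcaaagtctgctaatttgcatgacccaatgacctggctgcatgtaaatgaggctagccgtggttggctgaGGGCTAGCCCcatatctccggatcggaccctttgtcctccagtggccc
Cdkn1a: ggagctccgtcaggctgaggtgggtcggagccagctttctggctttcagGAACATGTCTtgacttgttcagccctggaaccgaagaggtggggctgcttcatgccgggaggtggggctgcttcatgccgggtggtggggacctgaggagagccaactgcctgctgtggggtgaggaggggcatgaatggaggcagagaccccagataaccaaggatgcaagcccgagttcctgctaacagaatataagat
Ccng1: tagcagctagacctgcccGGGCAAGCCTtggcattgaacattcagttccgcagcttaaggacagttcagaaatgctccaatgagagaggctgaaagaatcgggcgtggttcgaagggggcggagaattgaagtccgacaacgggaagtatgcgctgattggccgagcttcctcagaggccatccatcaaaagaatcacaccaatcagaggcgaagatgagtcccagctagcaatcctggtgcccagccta
Gadd45g: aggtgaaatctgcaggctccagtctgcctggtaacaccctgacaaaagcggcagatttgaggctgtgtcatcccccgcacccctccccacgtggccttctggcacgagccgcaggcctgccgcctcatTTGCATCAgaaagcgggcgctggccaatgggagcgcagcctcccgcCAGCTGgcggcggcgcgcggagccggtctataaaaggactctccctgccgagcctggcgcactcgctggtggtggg
The capitals in the first 3 windows mark the p53 half-site, which began 48 bases before the start in Gadd45a, 201 bases before it in Cdkn1a and 232 bases before it in Ccng1. A half-site was present in 6.56% of the 27456 RefSeq rat windows of this length. In Gadd45g the capitals mark TTGCATCA, the composite C/EBP-ATF element, 122 bases before the start (in 0.656% of all windows) and the E-box CAGCTG, 76 bases before it (in 11.9%). Both strands were searched, and CAGCTG is also a match to the general E-box CANNTG, which 65.2% of windows hold and which is not in capitals. The window of Mdm2 held the FoxO motif GTAAACA (in 3.25% of windows) and no half-site, that of Gadd45b held no capitalised motif, and TGACGTCA, the CRE (in 1.70%), was in none of the 6 windows. These matches describe the letters in 1 window per gene, and binding was not measured.

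The deposited values were CPM (reads of a gene per 1000000 reads of the library), and the depth inferred from the low values was about 18800000 to 30900000 reads per library. Differences are given as log2 fold changes of CPM + 1 from limma, and a gene was called differentially expressed (DEG) at a fold change of at least 1.2 with a Benjamini-Hochberg adjusted p-value of at most 0.05 over all rows tested. The CPM scale was not neutral between groups: the median log2 fold change over all 14031 rows was 0.22 in atrophy, 0.02 in recovery and 0.20 in repeated atrophy, while the 10 most abundant rows took 24.3% to 32.8% of the reads in control limbs, 13.0% to 25.6% in atrophy and 15.6% to 19.2% in repeated atrophy. Rescaling each library by a trimmed mean of log ratios brought those medians to 0.0025, 0.0088 and -0.0087, and changed the DEGs from 2844 higher and 327 lower to 663 and 695 in atrophy and from 3936 and 876 to 1845 and 1697 in repeated atrophy. Rescaled values are therefore given beside each member. In the atrophy limb of animal 367 the summed level of 6 muscle fibre markers was 162274 CPM, inside the control range of 152184 to 212658 CPM, whereas the atrophy limbs of animals 362 and 372 were at 65636 and 81501 CPM. Repeated atrophy limbs were at 92316 to 130154 CPM, and none of the 6 fibre markers, which include Acta1 and Ckm, was at 0 in any limb. In limma 0 of the 6 passed the threshold in atrophy, recovery or repeated atrophy, with 2, 1 and 0 at an unadjusted p under 0.05.

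In atrophy, 1 of the 5 members tested was a DEG: Cdkn1a rose. Of all rows, 22.6% were DEGs in this comparison, 20.3% in the upward direction. In recovery 0 of 5 members passed the threshold in limma, while 7.73% of all rows did (4.4% higher, 3.33% lower), and 2 of the 5 (Gadd45b and Ccng1) had an unadjusted p under 0.05. After repeated atrophy 4 of 5 members were DEGs, with Cdkn1a, Mdm2 and Ccng1 higher and Gadd45g lower, against 34.3% of all rows (28.1% higher, 6.24% lower). The 6 genes thus did not move as a block: Gadd45a and Cdkn1a rose several-fold, Gadd45g fell, Mdm2 and Ccng1 differed by less than 1 log2 unit, and Gadd45b was not past the threshold in any of these comparisons. The median log2 fold change of the 5 tested members was 0.37, 0.09 and 0.55 in atrophy, recovery and repeated atrophy. In the rescaled data the DEGs among the 5 were Cdkn1a in atrophy and Cdkn1a and Gadd45g in repeated atrophy.

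**Figure D1:**
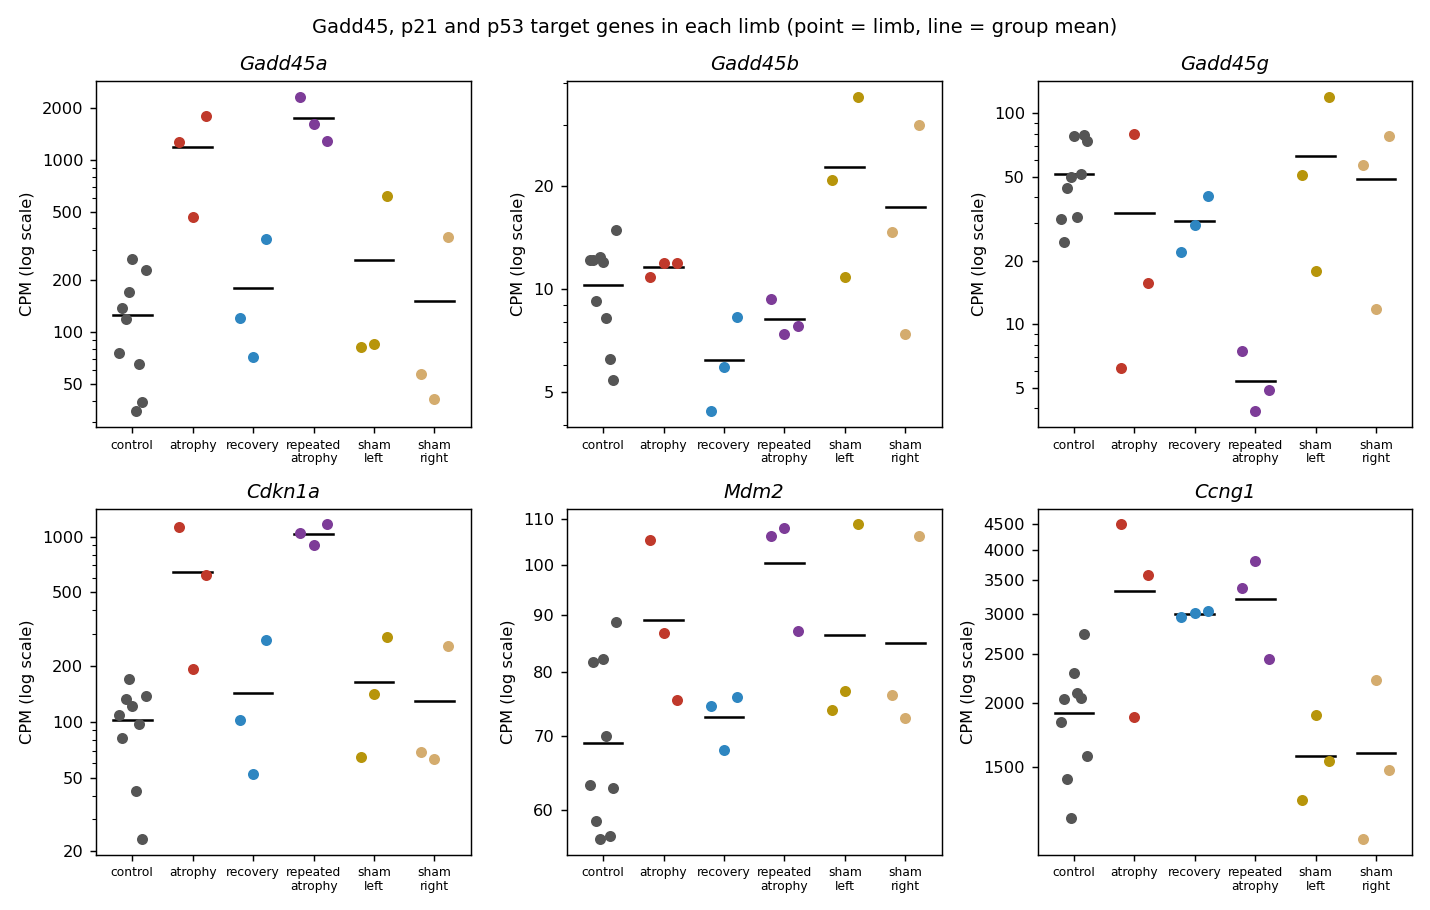
CPM of the 6 genes in each of the 24 limbs, on a log axis, by group (9 control limbs and 3 limbs in every other group; points are limbs and black lines group means). Gadd45a and Cdkn1a were higher in all 6 silenced limbs (atrophy and repeated atrophy) than in any of the 9 control limbs, and Gadd45g was lower in the 3 repeated atrophy limbs than in any control limb.

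Gadd45a, the family member best known from disuse, was present at 34.8 to 266 CPM in the 9 control limbs (median 119, mean 127 ± 82.8, SD). In the atrophy limbs it was at 1277, 465 and 1799 CPM in animals 362, 367 and 372. All 3 values lay above the highest control limb, and that of animal 367 was the lowest of the 3. The recovery limbs held 122, 71.6 and 345 CPM in animals 369, 370 and 371. Animals 369 and 370 were inside the control range and animal 371 was above it. The repeated atrophy limbs of animals 364, 365 and 366 held 2323, 1615 and 1290 CPM, which overlapped the atrophy limbs. The log2 fold change was 3.32 in atrophy, the 6th highest of 14031 rows, 0.50 in recovery and 4.04 in repeated atrophy, the 18th highest. After rescaling these values were 2.95, 0.48 and 3.66.

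Cdkn1a, the p21 gene, ranged from 23.3 to 169 CPM in control limbs (median 108, mean 102 ± 46.7). It was at 1127, 193 and 620 CPM in the atrophy limbs of animals 362, 367 and 372, so that all 3 exceeded the control range, animal 367 by little. The log2 fold change was 2.52 ± 0.56 (SE) with an adjusted p of 0.0087, and 2.16 with an adjusted p of 0.019 after rescaling. With the animal as a block, which compares the limbs of the same rat, it was 2.06 with an adjusted p of 0.18, and without animal 362 it was 2.00 with an adjusted p of 0.14, so the call in atrophy did not hold in either fit. Both fits lost nearly every call in atrophy: with that block limma called 0 of all 14031 rows, 2678 of which had an unadjusted p under 0.05, and without animal 362 it called 1 of 13993 rows, with 2867 at an unadjusted p under 0.05. In recovery Cdkn1a was at 102, 52.4 and 275 CPM in animals 369, 370 and 371 (log2 fold change 0.36 ± 0.56, adjusted p = 0.74). Animal 371 was above all control limbs, as it was for Gadd45a, and without that animal the log2 fold change was -0.51. In repeated atrophy the values were 1045, 899 and 1165 CPM in animals 364, 365 and 366. The 3 limbs lay close together and above every control and recovery limb, with a log2 fold change of 3.53 ± 0.56 and an adjusted p of 0.00025. That call held after rescaling (3.15, adjusted p = 0.00032) and with each rat as a block (3.06, adjusted p = 0.0098).

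Gadd45g, which is known for its role in differentiation and growth arrest, was lower in repeated atrophy. Control limbs held 24.6 to 78.4 CPM (median 49.6, mean 51.6 ± 20.8). In the repeated atrophy limbs it was at 7.45, 3.87 and 4.85 CPM in animals 364, 365 and 366. The groups did not overlap, and the log2 fold change was -2.97 ± 0.50 with an adjusted p of 0.00033, the 25th lowest of 14031 rows. It was -3.31 (adjusted p = 0.00028) after rescaling and -2.64 (adjusted p = 0.0038) with the animal as a block. The atrophy limbs were divided, with 6.22 CPM in animal 362, 15.6 in animal 372 and 79.4 in animal 367. The first 2 were below and the last was above every control limb. The log2 fold change in atrophy was -1.20 ± 0.50 (adjusted p = 0.088). Without animal 367 it was -2.07 with an adjusted p of 0.0012, past the threshold in a fit that called 4302 rows higher and 539 lower of 13998. Recovery limbs held 22.1, 29.6 and 40.4 CPM, the first just below the control range and the others inside it (log2 fold change -0.66, adjusted p = 0.43).

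Gadd45b, the third gene of the family and an inducible partner of MAP3K4 and MAP2K7, had the lowest level per kilobase of the 6 in control limbs. It was at 5.43 to 14.9 CPM in control limbs (median 12.0, mean 10.3 ± 3.17), 10.9 to 11.9 CPM in atrophy, 4.4 to 8.27 CPM in recovery and 7.38 to 9.38 CPM in repeated atrophy. Of these 9 limbs only the lowest recovery limb lay outside the control range. The log2 fold changes were 0.21 (adjusted p = 0.59), -0.63 (adjusted p = 0.12) and -0.25 (adjusted p = 0.49) in atrophy, recovery and repeated atrophy. The direction in atrophy depended on the scaling, as the rescaled value was -0.12.

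Mdm2, the negative regulator of p53, was at 56.6 to 88.8 CPM in control limbs (median 63.2, mean 69.0 ± 12.3). The repeated atrophy limbs held 106, 108 and 87.1 CPM, the first 2 above the control range and the last inside it. The log2 fold change was 0.55 ± 0.15 with an adjusted p of 0.0096, but 0.17 with an adjusted p of 0.45 after rescaling, and without animal 365 it was 0.46 with an adjusted p of 0.09. In atrophy Mdm2 was at 105, 86.8 and 75.5 CPM in animals 362, 367 and 372 (log2 fold change 0.37 ± 0.15, adjusted p = 0.083, and 0.0087 after rescaling). Without animal 372 it was 0.53 with an adjusted p of 0.042. Recovery limbs held 68.1 to 76.0 CPM and lay within the control range (0.09, adjusted p = 0.74).

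Ccng1, which encodes cyclin G1, a p53 target that recruits the phosphatase PP2A to MDM2, had the highest level per kilobase of the 6 in control limbs. Control limbs held 1192 to 2742 CPM (median 2042, mean 1919 ± 471). The atrophy limbs held 4488, 1882 and 3580 CPM in animals 362, 367 and 372 (log2 fold change 0.74 ± 0.27, adjusted p = 0.058). Animal 367 was again inside the control range, and without it, in the same wider set of calls as for Gadd45g, the log2 fold change was 1.14 with an adjusted p of 0.0053. The recovery limbs were almost equal, at 2961, 3012 and 3031 CPM. All 3 exceeded the highest control limb, yet the difference of 0.69 ± 0.27 did not pass (adjusted p = 0.125). Repeated atrophy limbs held 3366, 3810 and 2441 CPM, with a log2 fold change of 0.76 ± 0.27 and an adjusted p of 0.039. This call ended after rescaling (0.37, adjusted p = 0.38), and also without animal 364 (adjusted p = 0.11), 365 (adjusted p = 0.25), 369 or 370 (adjusted p = 0.058 in both) or 372 (adjusted p = 0.0501). Without animal 366 it was barely kept (adjusted p = 0.0496). Against the right limbs of the same rats the log2 fold change of Ccng1 in recovery was 0.40 (adjusted p = 0.53), smaller than against all 9 control limbs.

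**Figure D2:**
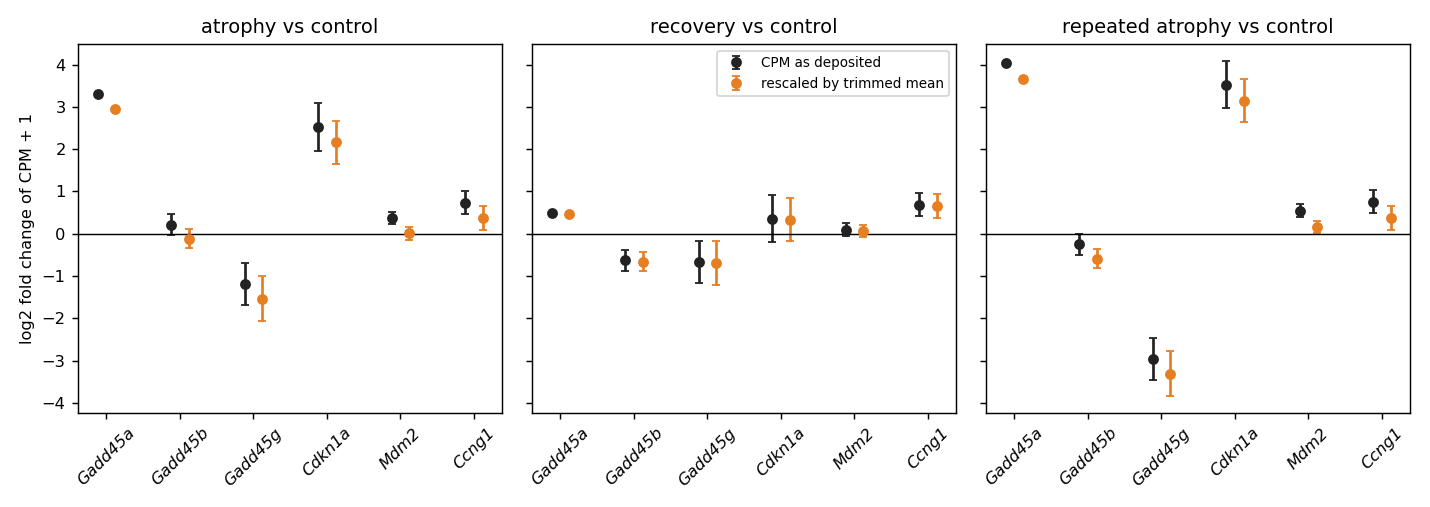
Log2 fold change of CPM + 1 against the 9 control limbs for the 6 genes in atrophy, recovery and repeated atrophy, from CPM as deposited (black) and after rescaling each library (orange). Bars are ± SE, and Gadd45a is drawn without a bar because it is given as a description. Rescaling lowered every value in atrophy and repeated atrophy, which left Cdkn1a and Gadd45g far from 0 and moved Mdm2 in atrophy to 0.0087.

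Per kilobase of transcript, which allows levels to be compared between genes, the order in control limbs was Ccng1 (600 ± 147 CPM per kb), Gadd45a (104 ± 68.3), Cdkn1a (54.7 ± 25.2), Gadd45g (48.7 ± 19.7), Mdm2 (24.2 ± 4.30) and Gadd45b (8.07 ± 2.48). Gadd45a, Cdkn1a and Gadd45g did not differ beyond their spread in this order. In repeated atrophy the order was Gadd45a (1437 ± 435 CPM per kb), Ccng1 (1002 ± 218), Cdkn1a (558 ± 71.7), Mdm2 (35.2 ± 4.05), Gadd45b (6.42 ± 0.82) and Gadd45g (5.09 ± 1.75). Gadd45a and Ccng1 lay within their spread of each other, and Gadd45g had reached the level of Gadd45b. In bulk muscle, fewer cells of a type and less RNA per cell cannot be told apart for any of these levels.

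The silenced states were also compared with recovery. From atrophy to recovery 1 of 5 members was a DEG, against 17.9% of all rows (3.34% higher and 14.5% lower in recovery), and Cdkn1a was lower in recovery by a log2 fold change of -2.16 ± 0.69 (adjusted p = 0.038). This call was marginal: the adjusted p was 0.066 after rescaling and 0.87 with the animal as a block, where the log2 fold change was -0.77, and it was also lost without animal 362 (0.18), 364 (0.051), 365 (0.056), 369 (0.11), 370 (0.19) or 372 (0.11). Over all rows 469 were higher and 2036 lower, against 0 and 2 with the block and 143 and 255 without animal 370. Without animal 367, where 530 rows were higher and 3174 lower, Gadd45g was also a DEG, higher in recovery (1.49, adjusted p = 0.026), and without animal 371 Gadd45b was, lower in recovery (-1.04, adjusted p = 0.025). From recovery to repeated atrophy 2 of 5 members were DEGs, against 27.2% of all rows (21% higher, 6.29% lower), Cdkn1a higher by 3.17 ± 0.69 (adjusted p = 0.0041) and Gadd45g lower by -2.31 ± 0.61 (adjusted p = 0.010). Both held after rescaling (2.81 and -2.62, adjusted p = 0.0054 and 0.0096). Neither held with each rat as a block (1.77 and -1.89, adjusted p = 0.33 and 0.15), a fit that called 3 rows higher and 9 lower of 14031, and Gadd45g was lost without animal 365 (adjusted p = 0.051). Gadd45a differed by -2.81 and 3.54 in these comparisons.

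Between the first and the repeated atrophy no member passed the threshold in limma (0 of 5, against 0.0356% of all rows, with 0.0143% higher and 0.0214% lower), and 1 of the 5, Gadd45g, had an unadjusted p under 0.05. Its log2 difference was -1.78 ± 0.61, repeated minus first, with an unadjusted p of 0.0091 and an adjusted p of 0.52, and without animal 367 it was -0.82. Cdkn1a was higher in repeated atrophy by 1.00 ± 0.69 (adjusted p = 0.94), which was 0.30 without animal 367. The spread of the 3 atrophy limbs (SD 467 CPM for Cdkn1a) was larger than that of the 3 repeated atrophy limbs (SD 133 CPM). A difference between the first and the repeated atrophy was not detectable for these genes with 3 limbs a group.

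The limbs of the same rat gave the same picture for the larger changes. In repeated atrophy the left limb held 7.56 to 16.8 times the Gadd45a level of the right limb, 6.73 to 12.8 times the Cdkn1a level and 1.65 to 2.67 times the Ccng1 level, in 3 of 3 rats each, and 0.087 to 0.30 times the Gadd45g level. In atrophy the ratio was 1.75 to 16.9 for Gadd45a and 1.59 to 10.4 for Cdkn1a, with animal 367 the lowest in both. For Gadd45g it was 1.02 in animal 367, against 0.20 and 0.21 in animals 362 and 372. For Ccng1 it was 0.82 in animal 367, against 2.44 and 2.26 in animals 362 and 372. In recovery Gadd45a was higher on the left in 3 of 3 rats, by 1.10 to 8.81 times, Cdkn1a in 2 of 3 (0.54 to 11.8 times), and Gadd45g was lower in 3 of 3 (0.51 to 0.68 times). Animal 371 had the largest ratio of the recovery rats for both Gadd45a and Cdkn1a.

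**Figure D3:**
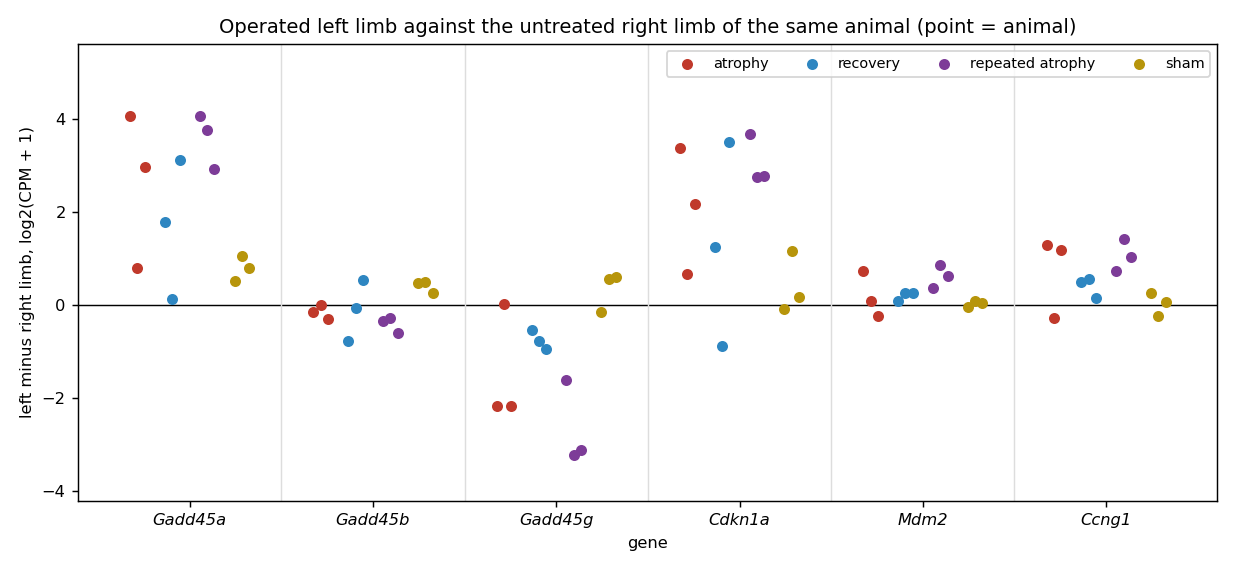
Left limb minus right limb of the same rat, in log2(CPM + 1), for each gene and each of the 12 rats (points are rats, coloured by group; sham rats had surgery without TTX). Gadd45a lay above 0 in all 12 rats, sham rats included, while Gadd45g lay below 0 in all repeated atrophy and recovery rats.

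Sham limbs showed how far these genes vary without silencing. Gadd45a was at 82.2, 85.3 and 616 CPM in the left and 57.4, 40.7 and 356 CPM in the right limbs of sham rats 354, 377 and 379. Both limbs of animal 379 were above all 9 control limbs, and its left limb was above the atrophy limb of animal 367. Cdkn1a was at 64.5, 142 and 287 CPM on the left and 68.7, 63.0 and 255 CPM on the right in the same order, and Gadd45b at 20.7, 10.8 and 36.4 CPM on the left and 14.6, 7.41 and 30.2 CPM on the right, so animal 379 was again the highest in both limbs. It was the only sham rat of the repeated atrophy time point, so the rat and the time cannot be told apart. In this rat the summed muscle fibre markers were the lowest of the sham rats (121196 CPM on the left), and their part in the result was not tested. Gadd45g was at 51.1, 17.9 and 120 CPM on the left and 56.8, 11.8 and 78.0 CPM on the right in rats 354, 377 and 379. Both limbs of animal 377 were therefore below all 9 control limbs, though above every repeated atrophy limb. Its right limb was also below the atrophy limb of animal 372.

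No member passed the threshold in limma between sham left and control limbs (0 of 6, against 0% of all rows), and 1 of the 6, Gadd45b, had an unadjusted p under 0.05 (log2 fold change 0.97 ± 0.33, unadjusted p = 0.012, adjusted p = 0.30), as had 1904 of 13822 rows. The count over all rows turned on sham rats, with 110 higher and 8 lower without animal 377 and 8 higher without animal 379, and 0 members in either. Gadd45a differed by 0.68 ± 0.69 (adjusted p = 0.63), and by -0.28 without animal 379. Sham left against sham right limbs also gave 0 of 6 members and 0% of all rows, with 0 members and 85 of 13483 rows at an unadjusted p under 0.05. Blocked by rat, the same limbs gave 0 members and 0 rows, with 576 rows at an unadjusted p under 0.05 and an adjusted p of 0.94 for Gadd45a and Gadd45b. The left limb held more Gadd45a than the right in 3 of 3 sham rats, by 1.43 to 2.10 times (mean log2 difference 0.78 ± 0.27, SD), and more Gadd45b in 3 of 3, by 1.21 to 1.46 times. The number of all rows that were higher on the left in 3 of 3 sham rats was not counted. Control limbs against sham right limbs gave 0 of 6 members and 0% of all rows, with 0 members and 1132 of 13848 rows at an unadjusted p under 0.05. Without animal 377 that comparison called 3 rows higher and 114 lower in control limbs (0 of them members), with 3406 at an unadjusted p under 0.05. When the 3 sham left limbs took the place of the control group, Cdkn1a was still a DEG in repeated atrophy (2.89, adjusted p = 0.048) and Gadd45g was not (-2.98, adjusted p = 0.059).

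The untreated right limbs of the TTX rats were themselves not level across the collection times. Gadd45a was at 34.8, 39.2 and 65.2 CPM in the control limbs of the recovery time point, below all 6 control limbs of the other times, which ran from 75.3 to 266 CPM. Gadd45b ran from 5.43 to 8.23 CPM at the recovery time and from 9.21 to 14.9 CPM at the other times, again with no overlap. How many of all rows separate without overlap between these times, or between groups, was not counted. Cdkn1a was at 23.3, 42.3 and 96.9 CPM at the recovery time and at 81.5 to 169 CPM otherwise. None of the 6 members passed the moderated F test in limma over the 3 times (0% of all rows did), and the adjusted p was 0.17 for Gadd45a, 0.21 for Gadd45b and 0.25 for Cdkn1a, with unadjusted p of 0.0026, 0.0055 and 0.014. At an unadjusted p under 0.05 stood 3 of the 6 members and 1892 of 13600 rows. Without animal 362 Gadd45a passed, with an adjusted p of 0.017, in a fit where 330 of 13526 rows passed. Set against their own 3 right limbs, the recovery limbs had a log2 fold change of 1.67 for Gadd45a and 1.29 for Cdkn1a (adjusted p = 0.30), where the pooled control group gave 0.50 and 0.36. The group and the time of collection cannot be told apart in the right limbs of these rats.

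**Figure D4:**
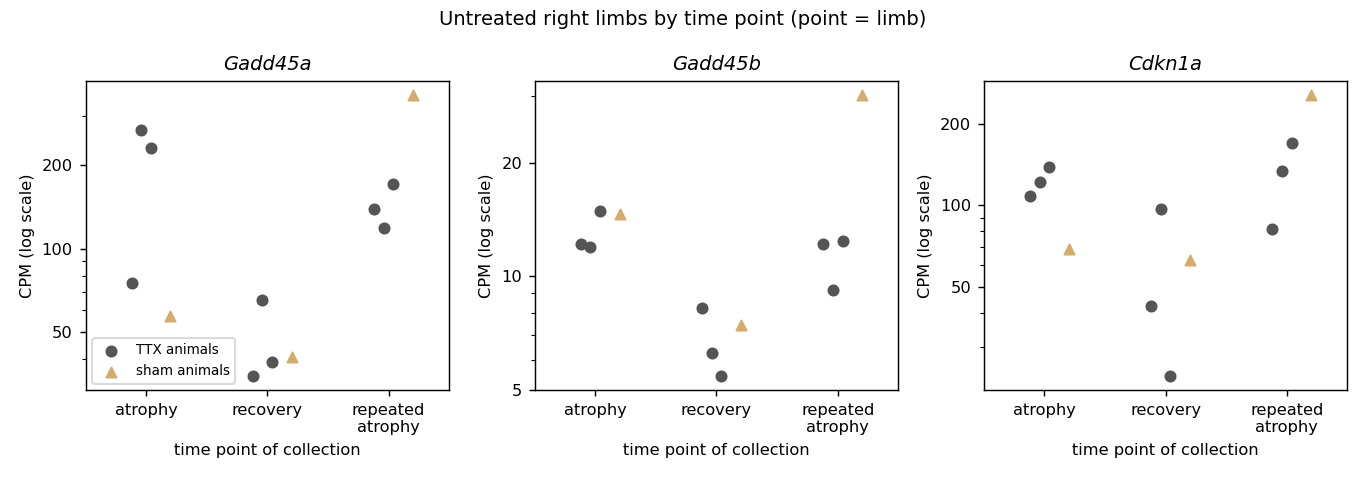
CPM of Gadd45a, Gadd45b and Cdkn1a on log axes in the untreated right limbs of the 9 TTX rats (circles, 3 per collection time) and the 3 sham rats (triangles, 1 per time). The recovery time point held the lowest limbs for Gadd45a and Gadd45b, and the highest value of all 3 genes was the sham rat of the repeated atrophy time.

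The other p53 targets, 34 genes of which 32 were tested, were described by the same fits. In atrophy 8 were higher and 0 lower, against 20.3% and 2.33% of all rows, and the median log2 fold change was 0.22, the same to 2 decimals as that of all rows. The largest rises were in the antiproliferative gene Btg2 (1.94, adjusted p = 0.0073), in Tp53inp1, a p53 cofactor (1.2, adjusted p = 0.014), in the pro-apoptotic Bax (0.85, adjusted p = 0.034) and in Phlda3, an inhibitor of AKT (0.84, adjusted p = 0.049). Btg2 was at 124, 107 and 385 CPM in animals 362, 367 and 372, against 24.5 to 116 CPM in control limbs, so animal 367 lay inside the control range. Sham limbs held 35.8 to 187 CPM of Btg2 on the left and 42.7 to 133 CPM on the right, which overlapped the atrophy limbs. In recovery 0 of 32 passed in limma, 4 had an unadjusted p under 0.05, and the median was -0.0088. In repeated atrophy 10 were higher and 1 lower, against 28.1% and 6.24% of all rows, with a median of 0.41 beside 0.20 for all rows. Btg2 (1.5, adjusted p = 0.0087), Tp53inp1 (1.4, adjusted p = 0.0024), Bax (1.09, adjusted p = 0.0053) and the RNA-binding protein gene Zmat3 (1.00, adjusted p = 0.0023) led the rises, and Sesn1, a sestrin that restrains mTORC1, was lower (-0.84, adjusted p = 0.034). Phlda3 was also higher in repeated atrophy (0.83, adjusted p = 0.038), and Zmat3 in atrophy (0.75, adjusted p = 0.023). After rescaling 2 were higher in atrophy (Btg2 and Tp53inp1), and 6 were higher and 2 lower in repeated atrophy. The count in atrophy turned on single rats: 0 passed without animal 362, 2 without 369, 3 without 370 or 372, 4 without 371 and 12 without 367. The calls over all rows swung with the same rats, from 1 of 13993 rows without animal 362 to 4302 higher and 539 lower of 13998 without animal 367, and lay between 1655 and 2125 higher without 369, 370, 371 or 372. With the animal as a block 0 passed in atrophy (6 at an unadjusted p under 0.05), and 8 were higher and 1 lower in repeated atrophy. That fit called 3012 rows higher and 794 lower of all 14031 in repeated atrophy.

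Of the p53 regulators and relatives, 12 of 14 genes were tested. In atrophy 7 were higher and 0 lower, against 20.3% and 2.33% of all rows (median log2 fold change 0.71, beside 0.22 for all rows), in recovery 0 passed in limma and 2 had an unadjusted p under 0.05 (median 0.048), and in repeated atrophy 5 were higher and 0 lower, against 28.1% and 6.24% of all rows (median 0.54, beside 0.20). The kinase gene Hipk2 rose by 1.43 (adjusted p = 0.013) and 1.84 (adjusted p = 0.0012) in atrophy and repeated atrophy, and Tp63, a relative of p53, by 1.13 (adjusted p = 0.030) and 1.4 (adjusted p = 0.0054). In atrophy Mdm4, which binds and restrains p53 (1.14, adjusted p = 0.017), and Ppm1d, a phosphatase that dampens the p53 response (1.02, adjusted p = 0.0089), completed the 4 largest rises. Ppm1d was also higher in repeated atrophy (1.31, adjusted p = 0.00045), and Mdm4 did not pass there (0.66, adjusted p = 0.11). In repeated atrophy Tp73 (1.64) and the DNA break response gene Tp53bp1 (1.56) were among the 4 largest. Both were also higher in atrophy (0.79 and 0.95, adjusted p = 0.0084 and 0.029). Tp73 was low, at 0 to 0.23 CPM in control limbs and 1.79 to 3.10 CPM in repeated atrophy. After rescaling 2 of the 12 were higher in atrophy, and 5 were higher and 1 lower in repeated atrophy. With the animal as a block 0 passed in atrophy (7 at an unadjusted p under 0.05) and 6 were higher in repeated atrophy, where the same fit called 3012 rows higher and 794 lower of 14031.

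**Figure D5:**
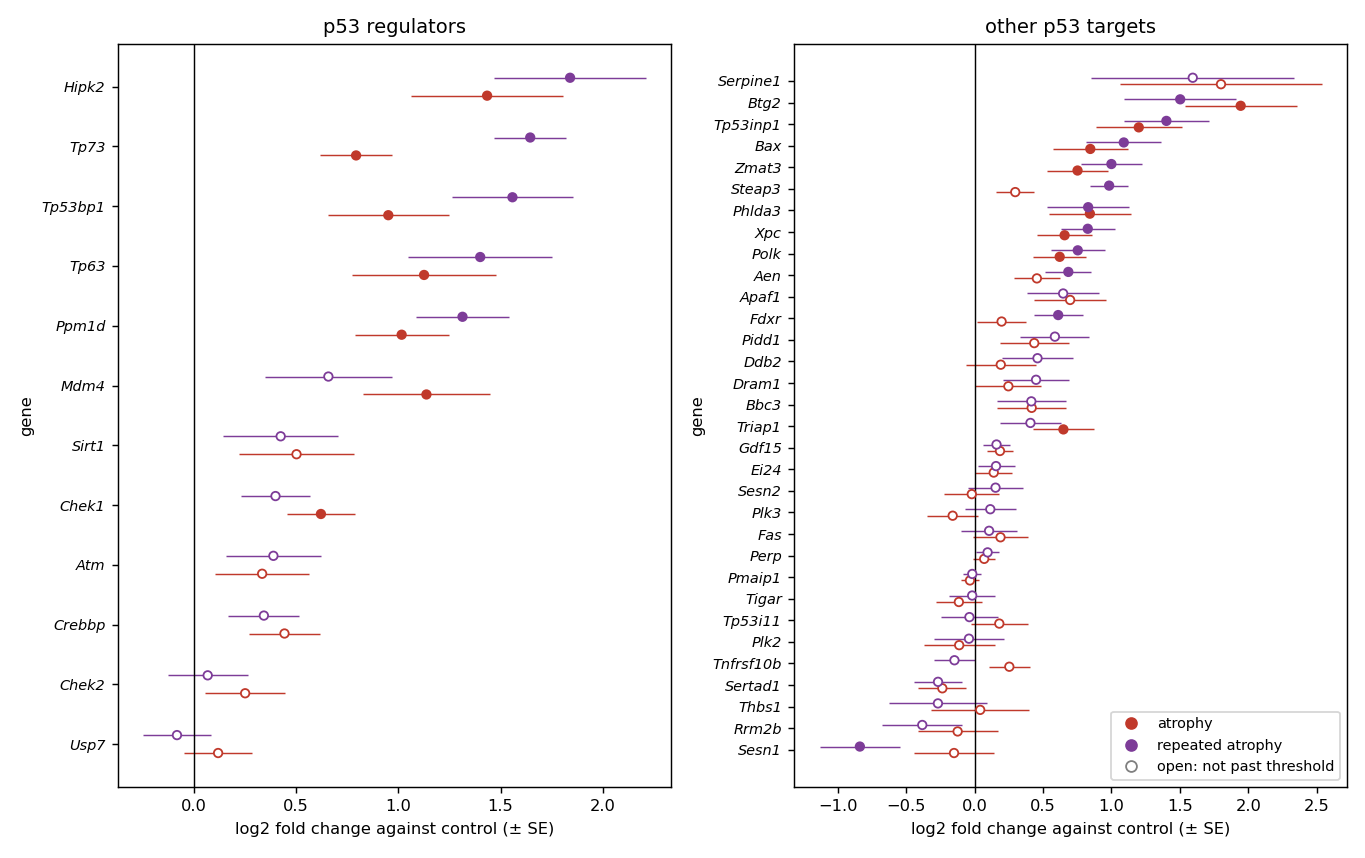
Log2 fold change against the 9 control limbs (± SE) for 12 p53 regulators and relatives and 32 other p53 targets, in atrophy (red) and repeated atrophy (purple), with filled points past the threshold and open points not. The points ran from Sesn1 at -0.84 in repeated atrophy to Btg2 at 1.94 in atrophy.

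Among Gadd45 partners and stress kinases, 15 of 16 genes were tested, with 2 higher and 1 lower in atrophy, 1 higher and 2 lower in recovery, and 5 higher and 3 lower in repeated atrophy. Of all rows, 20.3% were higher and 2.33% lower in atrophy, 4.4% and 3.33% in recovery and 28.1% and 6.24% in repeated atrophy, and the list's medians were 0.051, -0.028 and -0.067. Pcna, the replication clamp that binds both p21 and Gadd45 proteins, rose by 1.13 (adjusted p = 0.011) in atrophy and 1.49 (adjusted p = 0.00064) in repeated atrophy. It was at 87.8, 38.3 and 51.7 CPM in the atrophy limbs of animals 362, 367 and 372 and at 80.3, 86.6 and 53.6 CPM in the repeated atrophy limbs of animals 364, 365 and 366, against 17.6 to 41.9 CPM in control limbs. Map2k6, a kinase that activates p38, fell in the same comparisons (-1.25, adjusted p = 0.025, and -2.02, adjusted p = 0.00068), to 4.98, 12.0 and 14.9 CPM in the 3 repeated atrophy limbs, below the control range of 16.5 to 60.2 CPM. Sham limbs, which were not silenced, overlapped the silenced limbs for both genes. Map2k6 ran from 8.89 to 49.1 CPM in sham left and 8.67 to 53.7 CPM in sham right limbs. Pcna ran from 26.6 to 70.2 CPM and from 20.6 to 49.9 CPM in them. Mapk13, which encodes p38 delta, was also higher in atrophy (0.82, adjusted p = 0.0065). Its level was near 0, at 0.23 to 1.85 CPM in atrophy against 0.036 to 0.35 CPM in control limbs, and the ranges overlapped. The cyclin B1 gene Ccnb1 was higher in recovery (0.91, adjusted p = 0.035) and repeated atrophy (0.69, adjusted p = 0.041), as were, in repeated atrophy, the JNK gene Mapk8 (0.60, adjusted p = 0.0092) and Map2k4, a kinase that activates JNK (0.43, adjusted p = 0.038). Ccnb1 was low in all groups, at 0.092 to 1.18 CPM in control, 0.96 to 3.06 CPM in recovery and 1.42 to 3.77 CPM in sham left limbs. Mapk14, which encodes p38 alpha, and Map3k4 were lower in repeated atrophy (-0.50 and -0.48, adjusted p = 0.0059 and 0.037), and Mapk14 and Mapk12 in recovery (-0.45 and -0.48, adjusted p = 0.041 and 0.039). After rescaling the counts were 2 higher and 3 lower in atrophy and 1 higher (Pcna) and 5 lower in repeated atrophy. With the animal as a block they were 0 in atrophy and in recovery, where Mapk14 and Mapk12 had adjusted p of 0.24 and 0.31, and 3 higher and 3 lower in repeated atrophy. Over all 14031 rows the blocked fit called 3012 higher and 794 lower in repeated atrophy.

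Of 20 cell-cycle inhibitors, cyclins and cyclin-dependent kinases, 6 were higher and 1 lower in atrophy, 2 were higher in recovery, and 9 were higher and 1 lower in repeated atrophy. The shares of all rows were 20.3% higher and 2.33% lower in atrophy, 4.4% and 3.33% in recovery, and 28.1% and 6.24% in repeated atrophy, and the list's medians were 0.37, 0.24 and 0.47. Cdkn2b, which encodes the CDK4/6 inhibitor p15, rose by 1.68 (adjusted p = 0.015) and 2.61 (adjusted p = 0.00038), and Rb1, the retinoblastoma protein gene through which p21 acts on E2F, by 1.2 (adjusted p = 0.011) and 1.70 (adjusted p = 0.00042). Rb1 was at 126, 228 and 178 CPM in the repeated atrophy limbs against 36.8 to 87.3 CPM in control limbs. Of the genes that drive the G1 to S transition, Cdk2 rose by 0.74 (adjusted p = 0.016) and 0.62 (adjusted p = 0.023), and the cyclin E2 gene Ccne2 by 1.42 (adjusted p = 0.0024) in repeated atrophy. Others of the list, Ccnd1, Ccnd3, Cdk6 and E2f1, did not pass in atrophy or repeated atrophy. The CDK inhibitor genes Cdkn1b, in atrophy (0.81, adjusted p = 0.023), and Cdkn1c, in repeated atrophy (0.89, adjusted p = 0.026), were the others among the 4 largest rises. Cdkn1b was also higher in repeated atrophy (0.73, adjusted p = 0.023). The other 2 genes higher in atrophy, named after their values were seen, were Ccne1 (0.57, adjusted p = 0.014), which was also higher in repeated atrophy (0.80, adjusted p = 0.00068), and Cdk4 (0.45, adjusted p = 0.032). Cdk4 did not pass in repeated atrophy (0.36, adjusted p = 0.064). Ccne1 was low, at 0 to 0.31 CPM in control limbs and 0.73 to 1.03 CPM in repeated atrophy. Cdk2, Cdkn1b and Cdk4 did not pass after rescaling (adjusted p = 0.14, 0.15 and 0.59 in atrophy), nor did Cdkn1c in repeated atrophy (adjusted p = 0.17). Ccnd2, a G1 cyclin, fell by 0.71 and 0.94 on the log2 scale. The 2 genes that rose in recovery, Ccnd1 (1.53, adjusted p = 0.031) and E2f1 (0.69, adjusted p = 0.012), promote entry into S phase. E2f1 was low, at 0.28 to 1.03 CPM in control limbs and 1.23 to 1.82 CPM in recovery limbs. After rescaling 3 were higher and 1 lower in atrophy and 4 higher and 2 lower in repeated atrophy, with Cdkn2b and Rb1 among those higher in both. With the animal as a block 0 passed in atrophy or recovery, and 3 were higher and 1 lower in repeated atrophy, against 3012 higher and 794 lower of all 14031 rows. The markers of dividing cells, which include Mki67 and Top2a, summed to 3.38 to 8.54 CPM in control limbs, 11.5 to 20.3 CPM in recovery and 5.78 to 7.34 CPM in repeated atrophy, and in atrophy to 32.2 CPM in animal 362, 5.88 CPM in animal 367 and 5.14 CPM in animal 372.

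A further list held 9 candidate upstream factors of Gadd45a in disuse, chosen by name. Of these, 2 were higher in atrophy and repeated atrophy: Myog, which encodes myogenin (3.01 and 3.40, adjusted p = 0.0060 and 0.00029), and the histone deacetylase gene Hdac4 (1.28 and 1.67, adjusted p = 0.047 and 0.0076). Of all rows, 20.3% and 28.1% were higher in these comparisons, so the count of 2 in 9 is near the background, and the list's median log2 fold change was 0.11 in atrophy, -0.40 in recovery and -0.27 in repeated atrophy. The shares of all rows that were lower were 2.33% in atrophy, 3.33% in recovery and 6.24% in repeated atrophy. Myog was at 424, 187 and 782 CPM in the atrophy limbs and at 637, 526.3 and 420 CPM in the repeated atrophy limbs, all above the control maximum of 132 CPM. Atf4, the stress factor named in fasting and disuse as an activator of Gadd45a, was lower in repeated atrophy (-1.27, adjusted p = 0.0026), at 274, 138 and 119 CPM against 267 to 619 CPM in control limbs. Hdac9 was also lower there (-0.94, adjusted p = 0.023), and in recovery Hdac5 was lower (-0.86, adjusted p = 0.025). In the rescaled data Myog was higher in both silenced states, and Hdac4 was higher only in repeated atrophy. When rats were blocked, 0 of the 9 passed in atrophy or in recovery (Hdac5 -0.58, adjusted p = 0.21), and 2 were higher and 4 lower in repeated atrophy. Of all 14031 rows, 3012 were higher and 794 lower in repeated atrophy in that blocked fit.

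Markers of other cell types were counted in the same fits, in which 20.3% of all rows were higher and 2.33% lower in atrophy, 4.4% and 3.33% in recovery, and 28.1% and 6.24% in repeated atrophy. The 5 fibroblast markers, led by Col1a1 and Col3a1, summed to 1022 to 1918 CPM in recovery limbs against 194 to 528 CPM in control limbs, with 4 of 5 DEGs higher, and in atrophy and repeated atrophy to 221 to 528 and 319 to 514 CPM with 0 of 5 passing. Of the 7 macrophage and leukocyte markers 2 were higher in recovery (summed 103 to 212 CPM against 39.4 to 150 CPM), and of the 6 dividing cell markers 3 were. In atrophy and in repeated atrophy 0 of the 7 macrophage and leukocyte markers passed in limma (1 and 0 at an unadjusted p under 0.05), and 1 of the 6 dividing cell markers was higher in each. The 4 satellite cell markers, among them Pax7, summed to 38.2 to 129 CPM in atrophy and 51.7 to 79.7 CPM in repeated atrophy against 23.6 to 52.5 CPM in control limbs, with 1 of 4 higher in each and 1 of 4 lower in recovery and in repeated atrophy. The 5 endothelial markers summed to 131 to 224 CPM in repeated atrophy against 170 to 265 CPM in control limbs, with 1 lower there and 0 passing in atrophy or recovery, but after rescaling 4 of the 5 were lower in repeated atrophy and 1 in atrophy. None of the 5 Schwann cell or 3 adipocyte markers passed in limma in these comparisons (1 adipocyte marker in recovery had an unadjusted p under 0.05), and in control limbs they summed to 41.0 to 91.5 and 5.06 to 27.0 CPM. Of the defining markers, those of dividing cells were at 0 in 8 values over the 24 limbs, those of satellite cells in 2 and those of adipocytes in 1, and those of the other types in 0. In the fit blocked by rat 0 of the fibroblast, macrophage and dividing cell markers passed in recovery, with 4 of 5, 4 of 7 and 2 of 6 at an unadjusted p under 0.05, but that fit called only 6 rows higher and 3 lower of 14031 in recovery. After rescaling 5, 4 and 4 of them were higher there, as were 845 of all rows, with 847 lower. The part of these cells in the values of the 6 genes was not tested.

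Across all 24 limbs, the rows of at least 10 CPM whose level on the log2(CPM + 1) scale was most like that of Gadd45a (of 6766 compared) were Aif1l (Pearson r = 0.975), Myog (0.968), the metallothionein gene Mt1 (0.968), the titin-binding Ankrd1 (0.966) and the transcription factor gene Runx1 (0.963). For Cdkn1a they were Runx1 (0.977), Aif1l (0.969), Adap2 (0.961), the lipid droplet gene Plin2 (0.960) and the potassium channel gene Kcnn3 (0.960). For Gadd45g they were Nfil3 (0.878), Fzd4 (0.860), Phospho1 (0.855), Lrp5 (0.828) and Smtnl1 (0.818). Mdm2 was most like the proteasome gene Psmc6 (0.941), Ccng1 most like Hacd1 (0.954) and Gadd45b most like Ankzf1 (0.905). These are descriptions over limbs that fall into silenced and other limbs and share rats, with no test.

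Within the 9 control limbs, where no muscle was silenced, 0 of the 15 pairs of members were correlated after adjustment (two-sided exact permutation test), while 4 had an unadjusted exact p under 0.05 for r and 5 for rho. Gadd45a and Cdkn1a had r = 0.80 (exact p = 0.0062, adjusted p = 0.068) and rho = 0.75 (exact p = 0.025, adjusted p = 0.11), and r fell to 0.46 without the 2 limbs farthest from the median. Gadd45a and Gadd45b had r = 0.79 (exact p = 0.013, adjusted p = 0.068) and rho = 0.74 (exact p = 0.028, adjusted p = 0.11), with r = 0.69 without 2 limbs. Gadd45b and Cdkn1a had r = 0.72 (exact p = 0.027, adjusted p = 0.10) and rho = 0.74 (exact p = 0.028, adjusted p = 0.11), with r = 0.63 without 2 limbs. Cdkn1a and Ccng1 ran in opposite directions with r = -0.77 (exact p = 0.014, adjusted p = 0.068) and rho = -0.80 (exact p = 0.014, adjusted p = 0.11), and r = -0.78 without 2 limbs. The right limbs were not level across collection times, so the correlations were also taken on deviations from the mean of each time, an alternative chosen after the data were seen, with an exact permutation test within times. Within times r was 0.45 for Gadd45a and Cdkn1a (exact p = 0.10, adjusted p = 0.69) and 0.14 for Gadd45a and Gadd45b (exact p = 0.63, adjusted p = 0.93), and 0.16 for Gadd45b and Cdkn1a (exact p = 0.79, adjusted p = 0.93). For Cdkn1a and Ccng1 it was -0.70 (exact p = 0.037, adjusted p = 0.56). None of the 15 pairs passed, and 1 had an unadjusted exact p under 0.05.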

How the data were processed

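RNA from both tibialis anterior muscles of 12 rats was sequenced from polyA-selected, strand-specific libraries. The authors deposited 1 table of CPM (reads of a gene per 1000000), aligned to rn7 in Partek Flow. The submitters' processing notes also list STAR, DESeq2 and Bowtie2 2.2.5, and the annotation and counting step are not given in the sources used here. The methods name a median of ratios, but every deposited column summed to 1000000, so the values were treated as CPM. Of 27 value columns, 24 were matched to samples by name and 3 were not used. After 28 exact duplicate rows were removed, 14243 rows with 13458 symbols remained. Depth was inferred from the steps between low values. At most 0.6 CPM, 80.9% to 85.5% of them were whole reads within 0.05, so reads were not recovered and no count test was run.

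Groups followed the sample labels, and replicates are separate rats. Log2(CPM + 1) was tested with limma 3.58.1 (trend, R 4.3.3) on rows above 0 in at least 3 limbs, with the 18 limbs of the 9 TTX rats in 1 fit, and p-values were adjusted over all rows by Benjamini-Hochberg. The fold minimum was 1.2 and the adjusted p maximum 0.05. Sham and right-limb comparisons were fitted separately. The log2 scale understates the change of low genes. The function was tested on simulated data. Limbs with the same number came from the same rat, and the correlation of their deviations from the group means averaged 0.118 in 9 TTX rats (negative in 3) and 0.745 in 3 sham rats, over 10619 rows. Member correlations used exact permutation tests.

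The members and gene lists were chosen with earlier results of these data known. All 6 members are named, with up to 4 genes per list, direction and comparison (largest change first) and 5 rows per member by Pearson r. List genes not in the table were not analysed here. One gene of a list is not reported here. Promoter windows are from RefSeq (GRCr8), and rn7 positions were not mixed with them. Overlapping genes that share reads could not be separated. Alternatives changed the pseudocount, scaling, filter, trend, fold minimum, row summing, block, control limbs and each rat left out.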

Additional observations from a re-analysis of the deposited data

How the results depend on the processing

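Of 1158 values of single genes under alternatives, 1068 were unchanged, 46 changed direction, 31 lost and 9 gained the threshold and 4 moved. Unchanged means the same direction and the same side of the threshold. Gadd45a had no test in the comparisons of silenced, recovered and control limbs. There unchanged means the same direction and a shift smaller than the SD within groups, and moved means a larger shift. In atrophy the members called (1) were 2 with a mean of at least 1 CPM, without the limma trend or with 12 right limbs as control, and 0 with the animal as a fixed block, with each group's own right limbs or with sham left limbs (0 to 3 leaving out 1 rat). The other p53 targets (8) were 2 under either rescaling, 4 with 12 right limbs, and 0 with the block, own right limbs or sham left limbs (0 to 12). In recovery the targets (0) were 1 under either rescaling, with rows summed and with the rat as a random block (0 to 1). In repeated atrophy the members (4) were 2 under either rescaling and 1 with sham left limbs (2 to 4), and the targets (11) were 1 with sham left limbs. From atrophy to recovery the members (1) were 0 under either rescaling and either block and 2 with a mean of at least 1 CPM (0 to 2). From recovery to repeated atrophy (2) they were 0 with the fixed block (1 to 2). Across time points 1 passed without animal 362 (0 to 1). The correlations (0 of 15) were 1 under either rescaling and 4 with 12 right limbs (0 to 1), and 0 within collection times.

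These log2 fold changes changed sign. In atrophy Gadd45b was -0.12 and -0.13 under the 2 rescalings, -0.15 with the fixed block and own right limbs and -0.76 against sham left limbs, and Mdm2 was -0.0008 under the median of ratios. In recovery Gadd45a, Cdkn1a and Mdm2 were -0.17, -0.28 and -0.22 against sham left limbs, and leaving out 1 rat gave -0.29 to 0.92 for Gadd45a and -0.51 to 0.93 for Cdkn1a. From atrophy to recovery the fixed block gave 0.044 for Gadd45b and 0.012 for Mdm2, the rescalings 0.061 and 0.081 for Mdm2 and 0.29 and 0.31 for Ccng1, and leaving out 1 rat -0.42 to 0.21 for Ccng1 and -0.25 to 1.49 for Gadd45g. From recovery to repeated atrophy Gadd45b was -0.31 with the fixed block and Ccng1 -0.29 and -0.30 under the rescalings, and -0.066 to 0.25 leaving out 1 rat. Between the atrophies leaving out 1 rat gave -0.35 to 0.28 for Ccng1, and the highest value over all alternatives was 0.33. In sham left against control Gadd45g was -0.21 under both rescalings and -0.64 to 0.70 leaving out 1 rat, and Gadd45a -0.28 to 1.17. In sham left against right Mdm2 was -0.0005 under the median of ratios and -0.0054 to 0.056 leaving out 1 rat, and Ccng1 -0.087 to 0.15. In control against sham right leaving out 1 rat gave -0.49 to 1.06 for Gadd45a, -0.47 to 0.84 for Gadd45g and -0.58 to 0.42 for Cdkn1a. The cause was not tested. Leaving out a rat leaves groups of 2, and 3 limbs a group limit what could be detected. The fixed block changed no call of a member other than those given above and in the report.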
